A study of Mus musculus with 6 samples.

Results

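The NEDD4 family of ubiquitin ligases was examined in RAW 264.7 cells, a mouse macrophage-like line of tumour origin. The genes examined were 9 of the 24848 listed in the expression table, matched by symbol: the 7 ligase genes Nedd4l, Nedd4, Itch, Wwp1, Wwp2, Smurf1 and Smurf2 and the 2 adaptor genes Ndfip1 and Ndfip2. Nedd4l was chosen by its measured difference between the genotypes, and the others were added by name as its relatives. The differences between genotypes of these 9 genes are therefore given as a description, without p-values. Where a member is said to pass or miss a threshold, that is also a description and not a test.

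Poly(A) RNA was sequenced from 3 plates of cells with the genotype label WT and 3 plates of cells with the genotype label APOBEC1 KO (KO below). All plates were grown in the same serum-supplemented medium with no treatment named in the labels. APOBEC1 is a cytidine deaminase that edits RNA, and the series served to test a method of measuring such editing. How Apobec1 was disrupted, and whether the KO cells are a single clone, is not stated in the labels. The effect of the genotype and that of any other divergence between the cultures cannot be told apart, and each p-value reflects plate-to-plate spread only.

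HECT ligases accept ubiquitin from an E2 enzyme onto a cysteine of their own and then pass it to a substrate. Members of the NEDD4 family carry a C2 domain that binds membranes, several WW domains that bind short proline-rich PY motifs, and the HECT domain. Many of their substrates are membrane proteins, which ubiquitin marks for sorting to the lysosome. NDFIP1 and NDFIP2 are membrane proteins of the Golgi and endosomes whose PY motifs recruit and activate these ligases, and loss of Itch or Ndfip1 in mice causes inflammatory disease.

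Each library contained 50493447 to 70411383 reads counted in genes. Expression is given in CPM (counts per 1000000 counted reads), and a single read was worth 0.0142 to 0.0198 CPM. Apobec1 itself was read at 373, 431 and 396 CPM in the WT libraries and at 339, 340 and 361 CPM in the KO libraries. Its mRNA persisted in the KO libraries, and since a small edit can leave a transcript in place, the labels are not checked by this level. All 12 macrophage markers examined exceeded 1 CPM in all 6 libraries, with summed levels of 4587 to 4867 CPM in WT and 4779 to 5330 CPM in KO. Of these, 3 were called (adjusted p under 0.05 in limma) higher in KO (Lyz2, Spi1 and Itgb2) and 2 lower (Adgre1 and Fcgr1), and 7 were not called. The share called was 41.7%, against 30.4% of all tested genes. Spi1 lies on chromosome 2, where 63.4% of all tested genes were called. The 10 lymphocyte markers summed to 0.291 to 0.326 CPM in WT and 0.440 to 0.468 CPM in KO. Of these, 7 were listed at 0 in all libraries, Cd3e and Cd8a among them. The 12 fibroblast, epithelial and endothelial markers summed to 0.198 to 0.460 CPM in WT and 0.285 to 0.368 CPM in KO. As given below for B2m, a 0 in this table does not by itself show that an RNA was missing. WT replicate 1 was the least like its group, with correlations across genes of 0.988 and 0.993 with the other WT libraries, against 0.996 between those.

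Nedd4l encodes NEDD4-2, the ligase best known for removing the epithelial sodium channel from the cell surface. It had 18, 30 and 18 reads in the WT libraries and 942, 870 and 941 reads in the KO libraries. These reads equal 0.356, 0.445 and 0.308 CPM in WT and 13.4, 14.6 and 14.1 CPM in KO. The lowest KO value was far above the highest WT value, so the groups did not overlap. The mean went from 0.370 ± 0.0695 to 14.02 ± 0.595 CPM (SD, n = 3 each), a ratio of 37.9. On the scale of log2(CPM + 0.5), which makes changes of low genes look smaller, the log2 fold change was 4.06 ± 0.10 (SE). It was the largest positive log2 fold change among the 10614 genes tested. Nedd4l entered the set of tested genes, those with at least 1 CPM in at least 3 libraries, only through its KO libraries.

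Nedd4l (ENSMUSG00000024589.17) is a protein-coding gene on the plus strand of mm10 chromosome 18, from 64887705 to 65217828. An annotated antisense gene, A330084C13Rik, covers 1.57% of its exonic bases, and 1.06% of the 50-base words of its transcripts occur in transcripts of other genes, none of them (0) from the other 8 family members. The other 239 tested genes of chromosome 18 had a median log2 fold change of 0.00478. The nearest tested gene upstream was Nars, an asparaginyl-tRNA synthetase gene 371 kb away. It rose from 379 ± 8.39 to 488 ± 23.8 CPM (limma adjusted p = 0.00356). The nearest tested gene downstream, Sec11c, which encodes a signal peptidase subunit, was read at 99.7 ± 7.16 CPM in the WT group and 103 ± 5.14 CPM in the KO group and was not called (limma adjusted p = 0.619). Of 6 tested genes within 1 Mb, 2 were called, both higher, against 21.8% of the other tested genes of chromosome 18, 19 higher and 33 lower. With so few genes this count does not set the region apart. The second was Ccbe1, named after its value was seen, which went from 7.72 to 22.6 CPM (log2 fold change 1.504 ± 0.17, limma adjusted p = 0.000507).

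Nedd4 is the founding member of the family and the closest relative of Nedd4l. It was at the limit of detection in both genotypes, with 2, 3 and 4 reads in WT and 4, 3 and 1 reads in KO. A count of 0 would allow up to 3 reads, or 0.0426 to 0.0594 CPM in these libraries (counting error only), and Nedd4 stood at 0.0396 to 0.0685 CPM in WT and 0.0150 to 0.0568 CPM in KO. The groups overlapped, no fold is given, and Nedd4 was the 1 member not tested. No annotated gene shares exonic bases with it (0 bases), and 0.763% of its 50-base words occur in other genes. B2m, which nearly every cell expresses, was listed at 0 in all 6 libraries of this table, so a level near 0 does not by itself show that the RNA was missing. Whether the counting lowered Nedd4 was not tested.

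**Figure D1:**
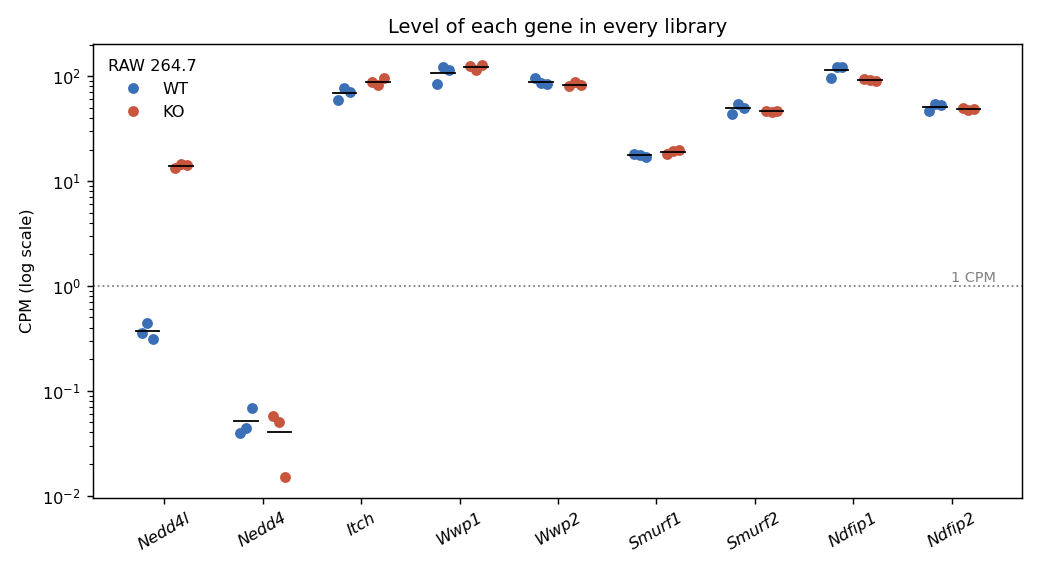
Level of the 9 genes in CPM (log scale) in each library, with WT in blue and KO in red and a black bar at each group mean. The dotted line marks 1 CPM. Nedd4l lies below 1 CPM in all WT libraries and at 13.4 to 14.6 CPM in all KO libraries, Nedd4 stays under 0.07 CPM, and the other 7 genes lie between 17.02 and 129 CPM in both groups.

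The other 7 genes were well expressed, and of the 8 tested members 2, Nedd4l and Itch, passed the threshold of the fit across all genes (adjusted p under 0.05 in limma), both higher in KO. Over all tested genes, 30.4% passed, 13.5% higher and 16.9% lower in KO. The groups did not overlap for 4 of the 8 tested members, Nedd4l, Itch, Smurf1 and Ndfip1, against 46.4% of all tested genes. Nothing is read from these counts, since the same contrast brought Nedd4l forward. The pass of Nedd4l was fixed by that choice, and Nedd4l was tested only through its KO libraries.

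Itch, whose product limits JunB and other regulators of inflammation, was read at 58.8, 77.8 and 71.5 CPM in WT and at 88.9, 81.7 and 95.2 CPM in KO. All KO values lay above all WT values, and WT replicate 1 was the lowest. The mean rose from 69.3 ± 9.67 to 88.6 ± 6.76 CPM, a ratio of 1.28 (log2 fold change 0.36 ± 0.11). Itch lies on mm10 chromosome 2 (155133509 to 155226855, plus strand). The other 855 tested genes of chromosome 2 had a median log2 fold change of 0.34 and 47.0% of them were as high as Itch or higher. The change of Itch was thus in the middle of those of its chromosome, and its part in that shift was not tested. The call of Itch held in 10 of 17 alternative fits. It was lost without WT replicate 3 (log2 fold change 0.38) and without each KO replicate in turn (0.31 to 0.41). Without WT replicate 1 the call held, at the lowest log2 fold change of the alternatives, 0.24.

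Wwp1 and Wwp2 are the closest relatives of Itch. Wwp1 was read at 84.3, 123 and 115 CPM in WT and at 125, 115 and 129 CPM in KO. The groups overlapped, and WT replicate 1 alone stood clearly below the other 5 libraries. The log2 fold change of Wwp1 was 0.21 ± 0.13 with all libraries and 0.05 without WT replicate 1, and neither passed the threshold. Wwp2 was read at 95.8, 85.6 and 83.9 CPM in WT and at 80.0, 87.2 and 82.4 CPM in KO. Here WT replicate 1 was the highest library, the groups overlapped, and the log2 fold change was -0.09 ± 0.07. The predicted coding gene Gm12353 runs opposite to Wwp1 over 42.5% of its span but shares only 0.713% of its exonic bases.

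Smurf1 and Smurf2 target SMAD proteins, and with SMAD7 the TGF-beta receptor. Smurf1 was the lowest of the well-expressed ligases, at 18.0, 17.6 and 17.02 CPM in WT and 18.1, 19.2 and 19.6 CPM in KO. Its groups did not overlap, by a gap under 0.1 CPM, and the log2 fold change of 0.11 ± 0.07 missed the threshold. Smurf2 was read at 43.7, 54.6 and 49.8 CPM in WT and at 46.8, 45.2 and 46.5 CPM in KO. The KO values lay within the WT range, with a log2 fold change of -0.09 ± 0.09.

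Of the adaptors, Ndfip1 was read at 95.5, 123 and 123 CPM in WT and at 93.7, 91.1 and 89.6 CPM in KO. All KO values lay below all WT values, but WT replicate 1 was close to the KO libraries. The means were 114 ± 15.6 and 91.5 ± 2.10 CPM, with a log2 fold change of -0.30 ± 0.10 that missed the threshold. Without WT replicate 1 it was -0.42 and passed. Without each of the other libraries in turn it was -0.24 to -0.32 and missed. It passed in 4 of 18 alternative fits. Ndfip1 shares chromosome 18 with Nedd4l (38410396 to 38465303, plus strand). Ndfip2 was read at 46.1, 54.4 and 53.7 CPM in WT and at 50.3, 48.0 and 48.7 CPM in KO, so that the groups overlapped, with a log2 fold change of -0.07 ± 0.08. A pseudogene on the opposite strand covers 4.79% of the exonic bases of Ndfip2.

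**Figure D2:**
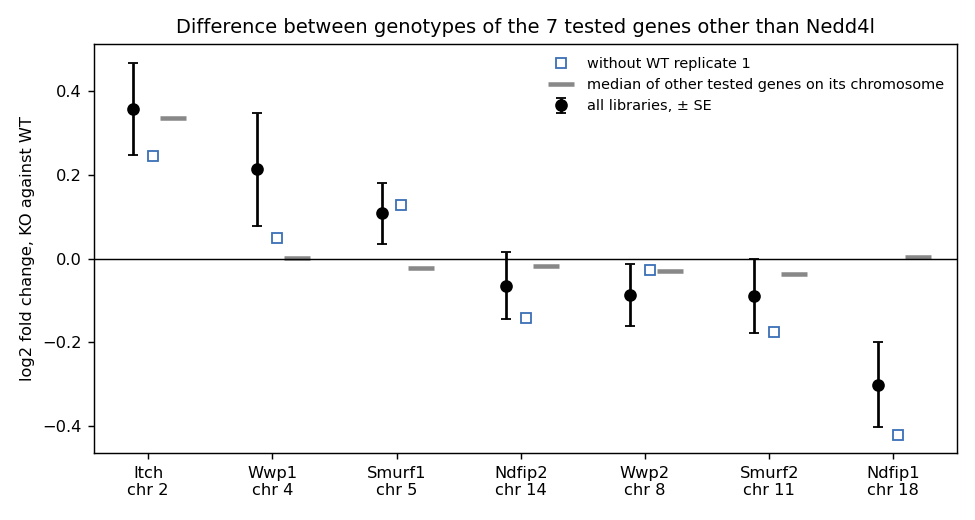
Log2 fold change, KO against WT, of the 7 tested genes other than Nedd4l (filled circles with SE bars), the same without WT replicate 1 (open squares) and the median of the other tested genes on the same chromosome (grey bars). Itch, at 0.36, lies near the median of chromosome 2 (0.34), and Ndfip1 goes from -0.30 to -0.42 without WT replicate 1.

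Levels were compared between genes per length, as CPM per kb of the union of annotated exons, which sets genes with many annotated exons low. In WT the order was Ndfip1 (17.9 ± 2.47 CPM per kb), Wwp1 (16.6 ± 3.15), Wwp2 (9.97 ± 0.728), Smurf2 (8.01 ± 0.889), Itch (7.14 ± 0.996), Ndfip2 (4.45 ± 0.400), Smurf1 (2.77 ± 0.0811), Nedd4l (0.0209 ± 0.00393) and Nedd4 (0.00464 ± 0.00141). The ranges of Ndfip1 and Wwp1 overlapped, as did those of Smurf2 and Itch, and no other neighbours in the order did. In KO, Wwp1 came first (19.1 ± 1.17 CPM per kb) and Ndfip1 second (14.4 ± 0.332), without overlap. Itch (9.12 ± 0.696) stood level with Wwp2 (9.38 ± 0.413), with overlapping ranges, and above Smurf2 (7.49 ± 0.139).

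Despite its rise, Nedd4l stayed the second lowest of the 9 genes in KO, at 0.794 ± 0.0337 CPM per kb. It supplied 0.0471 ± 0.00747% of the summed CPM per kb of the 7 ligases in WT and 1.63 ± 0.105% in KO. Wwp1 supplied the most in both groups, 37.1 ± 3.75% in WT and 39.0 ± 1.201% in KO. The summed ligase level was 39.9, 48.4 and 45.4 CPM per kb in WT and 48.8, 47.2 and 50.5 in KO, so that the groups overlapped. The summed level of the adaptors was 19.1, 24.1 and 24.0 CPM per kb in WT and 19.2, 18.5 and 18.4 in KO, which also overlapped. The adaptor sum divided by the ligase sum, a quantity chosen after the values were seen, was 0.478 to 0.530 in WT and 0.363 to 0.393 in KO.

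**Figure D3:**
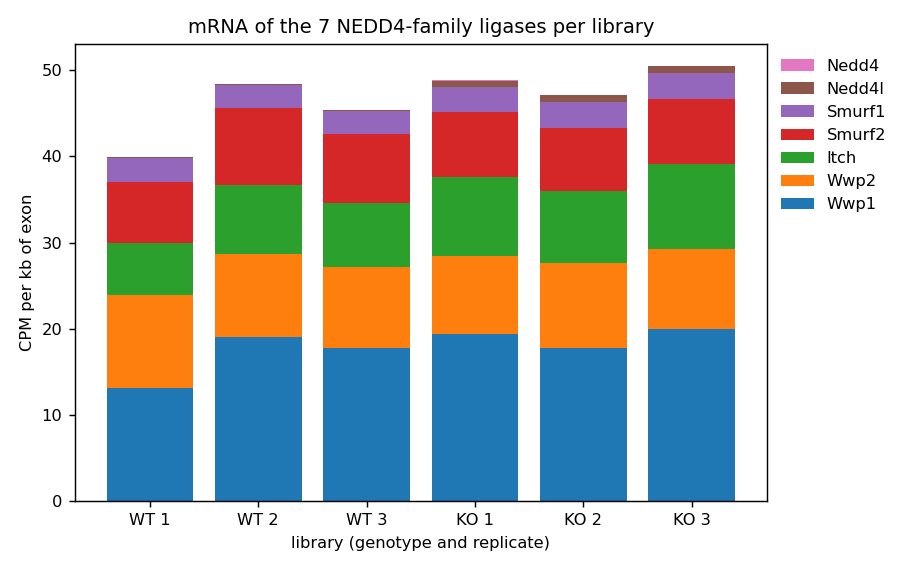
CPM per kb of exon of the 7 ligases, stacked for each library. Wwp1 is the thickest layer in every library, Nedd4l is visible only as a thin layer in the KO libraries (1.63% of the sum on average), and Nedd4 is too low to be seen.

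The genes whose 6 library values followed Nedd4l most closely were found by the distance between log2(CPM + 0.5) profiles after the WT mean of each gene was subtracted. They were Phlda3, an Akt inhibitor (distance 0.485), Alox5, which starts leukotriene synthesis (0.490), the carbonyl reductase gene Cbr3 (0.764), Il1rn, the interleukin-1 receptor antagonist (1.15), and the glutathione transferase gene Gsta3 (1.60). With 2 groups of 3 libraries, this measure mostly ranks genes by the size of their rise. Phlda3 went from 1.03 ± 0.0771 to 20.9 ± 2.28 CPM and Cbr3 from 0.806 ± 0.128 to 15.7 ± 1.36 CPM.

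Hecw1 and Hecw2, ligase genes of the same family that are not among the 9, were low. Hecw1 had 0 reads in 5 libraries and 1 read in KO replicate 3. Hecw2 stood at 0.911, 1.78 and 1.15 CPM in WT and 0.838, 0.669 and 0.780 CPM in KO, without overlap, and did not reach the level needed for testing. Of the 19 genes in the list of other HECT ligases, the 17 outside the NEDD4 family were tested. Of these 1 rose and 2 fell (17.6% called, against 30.4% of all tested genes), with a median log2 fold change of -0.10. Hectd2 fell from 7.09 ± 2.91 to 0.144 ± 0.0553 CPM, 49.4-fold (log2 fold change -3.49 ± 0.26). It reached the 1 CPM needed for testing only through its WT libraries, so its difference is given without a p-value. Its call is 1 of the 2 counted above as a fall. Its antisense gene Hectd2os overlaps 20.2% of its exonic bases and went from 10.9 ± 3.29 to 0.393 ± 0.0974 CPM, and reads of the shared part cannot be told apart because the use of strand in counting is not given. The giant ligase gene Herc1 fell 1.43-fold (limma adjusted p = 0.0320) and Ube3c rose 1.17-fold (limma adjusted p = 0.0452).

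Upstream of the ligases, 3 of 11 tested E2 genes were called, 2 higher and 1 lower (27.3%, against 30.4% of all tested genes). The median log2 fold change of the E2 genes was 0.17, against -0.02 over all tested genes. For the 9 tested E2 genes outside chromosome 2 it was 0.05, against -0.04 for all tested genes there. Of those 9, 22.2% were called, against 27.5% of all tested genes there. Ube2e3 rose from 72.3 ± 7.78 to 93.0 ± 2.19 CPM (limma adjusted p = 0.0150) and lies on chromosome 2. Ube2e2 fell from 20.1 ± 1.55 to 16.1 ± 0.796 CPM (limma adjusted p = 0.0261). Ube2l3, which encodes UBCH7, an E2 that works with HECT ligases, rose from 220 ± 15.6 to 259 ± 3.56 CPM (limma adjusted p = 0.0301), but 28.6% of its exonic bases are shared with Ydjc on the opposite strand. Of 5 tested genes of ubiquitin itself and its E1 enzymes, Uba1 rose 1.17-fold (limma adjusted p = 0.0421). Rps27a, a fusion gene of ubiquitin and a ribosomal protein, fell 1.18-fold (limma adjusted p = 0.0273). The share called was 40%, against 30.4% of all tested genes. The ubiquitin gene Ubb stood at only 0.303 ± 0.0293 CPM in WT and 0.352 ± 0.0641 CPM in KO and was not in the fit. Whether the counting lowered it was not tested.

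Among adaptors and regulators of the family other than the NDFIP genes, 15 of 32 tested genes were called, 10 higher and 5 lower. The share called was 46.9%, against 30.4% of all tested genes, and the median log2 fold change 0.12, against -0.02 for all. This list and the others were chosen with earlier results of these data known, so nothing is read from their shares called. Sgk1 encodes a kinase that phosphorylates NEDD4-2 and thereby creates a site for 14-3-3 proteins, which hold the ligase off its substrates. Sgk1 was read at 3.37, 3.75 and 3.70 CPM in WT and at 9.20, 8.87 and 9.99 CPM in KO. It rose 2.59-fold (log2 fold change 1.26 ± 0.09, limma adjusted p = 4.56e-05), without overlap between groups. Ywhab, a 14-3-3 gene on chromosome 2, rose from 342 ± 15.4 to 498 ± 10.0 CPM (limma adjusted p = 0.000471). Of the other 14-3-3 genes listed, Ywhag and Ywhaz were also called higher, Ywhae, Ywhah and Ywhaq were not called, and Sfn was not tested. Sgk3, a relative of Sgk1, was not called.

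Ldlrad3 and Ldlrad4 encode membrane proteins with PY motifs that bind these ligases, and they went opposite ways. Ldlrad3, on chromosome 2, rose from 61.9 ± 5.62 to 99.7 ± 2.68 CPM (limma adjusted p = 0.000538). Ldlrad4 fell from 7.995 ± 0.718 to 3.62 ± 0.262 CPM (limma adjusted p = 0.000217), although 52.1% of its exonic bases are shared with Fam210a on the opposite strand.

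Of the genes listed as substrates or possible substrates of the family, 13 of 34 tested were called (38.2%, against 30.4% of all tested genes). Of these, 7 were higher and 6 lower, and the median log2 fold change of the list was -0.02. Traf4 and Traf6 encode adaptors of receptor signalling. Traf4 rose from 3.57 ± 0.324 to 6.76 ± 0.559 CPM (limma adjusted p = 0.000764) and Traf6, on chromosome 2, from 85.7 ± 5.07 to 115 ± 3.92 CPM (limma adjusted p = 0.00270). Nlrp3, an inflammasome sensor, fell from 110 ± 3.58 to 81.2 ± 4.93 CPM (limma adjusted p = 0.00226). Cdkn1b, the cell cycle inhibitor p27, fell from 71.8 ± 18.6 to 37.0 ± 5.54 CPM (limma adjusted p = 0.00752). These are mRNA levels, and ubiquitination acts on the proteins, which were not measured.

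Of the TGF-beta and BMP pathway, which the SMURF ligases restrain, 10 of 24 tested genes were called (41.7%, against 30.4% of all tested genes). Of these, 6 were higher and 4 lower. The median log2 fold change of the list was 0.10, against -0.02 over all tested genes. Outside chromosome 2, 36.8% of 19 tested genes of the list were called, against 27.5% of all tested genes there. Ski, which represses SMAD-driven transcription, rose 1.51-fold to 88.8 ± 3.42 CPM (limma adjusted p = 0.000313), and the receptor gene Acvr1, on chromosome 2, rose 1.43-fold to 28.1 ± 0.847 CPM (limma adjusted p = 0.00160). Id3, a target of BMP signals, fell from 26.1 ± 1.78 to 16.5 ± 0.519 CPM (limma adjusted p = 0.000714). The corepressor gene Tgif2, also on chromosome 2, fell from 1.33 ± 0.0669 to 0.399 ± 0.113 CPM. Of its exonic bases, 56.7% are shared with 5430405H02Rik on the opposite strand. Tgif2 too reached 1 CPM only through its WT libraries, so no p-value is given, and its call is among the 4 lower.

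Downstream, the ESCRT machinery sorts ubiquitinated membrane proteins into the lysosomal pathway. Of 28 tested genes, 5 rose and 3 fell (28.6% called, against 30.4% of all tested genes). Their median log2 fold change was 0.06. Outside chromosome 2, 1 rose and 3 fell of 23 tested genes of the list (17.4% called, against 27.5% of all tested genes there). The median there was 0.03. Stam2, which binds ubiquitinated cargo, rose from 75.2 ± 4.41 to 129 ± 1.40 CPM (limma adjusted p = 9.97e-05). Usp8, a deubiquitinase of the endosome, rose from 153 ± 12.02 to 221 ± 16.8 CPM (limma adjusted p = 0.00250). Chmp4b rose 1.31-fold (limma adjusted p = 0.00370) and Mvb12b 1.35-fold (limma adjusted p = 0.00430).

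Stam2, Usp8, Chmp4b and Mvb12b all lie on chromosome 2, which held 4 of the 5 ESCRT genes that rose. The 7 lists together had 52 called genes of 146 tested, 31 higher and 21 lower (35.6%). The lower genes include Hectd2 and Tgif2, which reached 1 CPM only through their WT libraries. On chromosome 2 the lists had 10 higher and 1 lower (Tgif2) of 16 tested (68.8% called), against 63.4% of all tested genes there. All tested genes of chromosome 2 had 499 higher and 44 lower of 856. On the other chromosomes the lists had 21 higher and 20 lower of 130 tested (31.5% called), against 27.5% of all tested genes there. All tested genes of those chromosomes had 937 higher and 1750 lower of 9758. The part that chromosome 2 has in the rise of the listed genes was not tested.

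**Figure D4:**
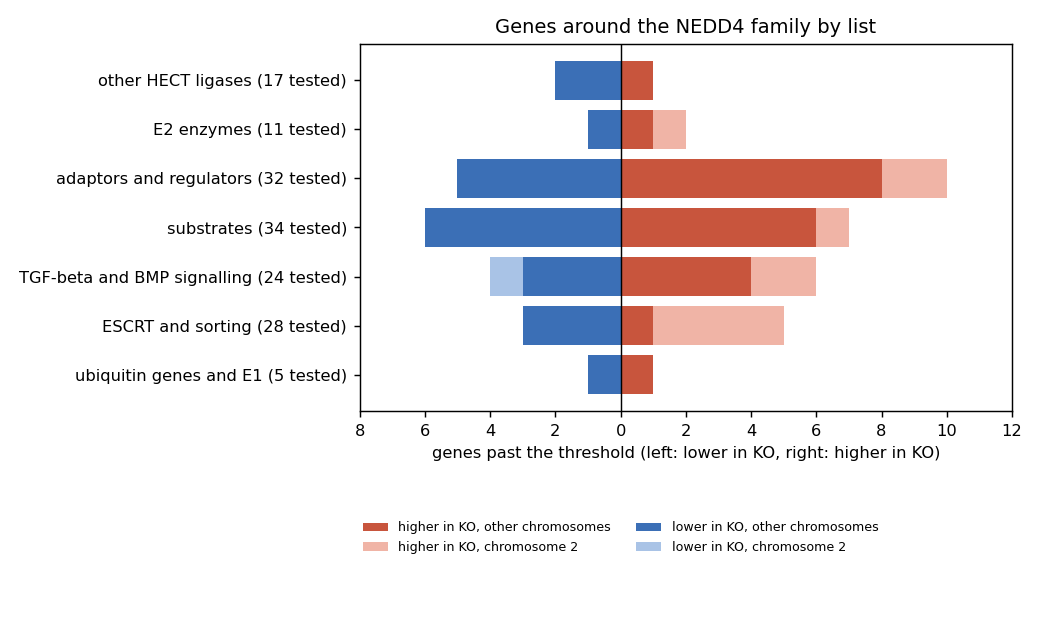
Number of genes in each list that passed the threshold, higher in KO to the right (red) and lower to the left (blue), with genes of chromosome 2 in the pale shade. The list of adaptors and regulators has 10 higher and 5 lower genes, and 4 of the 5 higher ESCRT genes lie on chromosome 2.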

How the data were processed

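The submitters' processing notes name STAR 2.6.0a, Trim Galore, FastQC, SAMtools and Picard, with mm10 as the build. Duplicates were removed from coordinate-sorted alignments, per the file headers. The sources used here name no counting program, annotation or use of strand. The values the authors deposited are CPM, and 100% of values were whole multiples of a single read (tolerance 0.01 of a read), so reads were recovered.

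A gene was tested when 3 or more of the 6 libraries reached 1 CPM. Differences in log2(CPM + 0.5) were estimated by limma 3.58.1 (R 4.3.3; lmFit, then eBayes with trend, without covariates), with Benjamini-Hochberg adjustment over all tested genes and a threshold of 0.05. In simulated data the fit recovered 94.0% of 67 genes changed 1.5-fold and 100% of those changed 2-fold or 4-fold, with 10 false calls. The simulation used the same dispersion for every gene and changed far fewer genes than the 3230 called here. It held no outlying library and no shifted chromosome, so it does not test the fit under those conditions. Alternatives were other pseudocounts, filters and scalings, a replicate block, edgeR 4.0.16, DESeq2 1.42.0, and leaving out each library. Runs without Rn45s (0.381% to 2.75% of reads) and without chromosome 2 were added after the data were seen.

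The members and the lists were chosen with earlier results of these data known. The names follow a rule: the members, Apobec1, Hecw1, Hecw2, up to 4 called genes per list by adjusted p, the 5 genes nearest to Nedd4l and its tested neighbours. B2m, Hectd2os, Ccbe1, Ubb, Sgk3, Sfn and the Ywha genes other than Ywhab were added after their values were seen. So were the cell type markers named (all from fixed marker lists). Of 180 listed pathway symbols, 178 were in the table. Coordinates, exon lengths and transcripts come from GENCODE M21 (mm10), to which 24305 symbols matched. Protein sequences were not used here.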

Additional observations from a re-analysis of the deposited data

How the results depend on the processing

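Over all alternatives, 0 of the 8 tested members changed direction. The log2 fold change of Nedd4l ranged from 3.45 to 5.26, a description only, since its direction in this contrast was fixed by its choice. In the full fit 3230 genes, 2 members and 52 pathway genes were called. With the replicate block it was 2009 genes (891 higher, 1118 lower), 1 member (1 higher) and 32 pathway genes (20 higher, 12 lower). Nothing in the labels ties plates of the same number together. Deviations of same-numbered libraries from their group means correlated at -0.25, -0.64 and -0.17, and no library correlated best with its own number. The best matches were WT 1 with KO 2 (0.58), WT 2 with KO 3 (0.61) and WT 3 with KO 1 (0.29). Deviations from a mean of 3 libraries depend on one another, so these values cannot decide whether the plates were paired. Leaving out each library gave 1973 to 3761 genes (957 to 1662 higher, 1016 to 2099 lower), 1 to 3 members (1 to 2 higher, 0 to 1 lower) and 32 to 59 pathway genes (21 to 32 higher, 11 to 27 lower). The number of genes moved by over 1.5 times only without KO replicate 1 (1973), and that of pathway genes without KO replicates 1 (34) and 2 (32) and, for those lower, also without WT replicate 3 (13). Members called fell to 1 without WT replicate 3 and without each KO replicate. Members called were 1, higher, without a filter on low values, without the mean-variance trend and without chromosome 2, since Itch no longer passed or was left out. Ndfip1 made 1 member called lower under quantile normalization, with DESeq2 and after rescaling without Rn45s. Without chromosome 2, 880 genes and 18 pathway genes were called higher. The 18 to 30 reads of Nedd4l in WT limit the precision of its ratio, and the 1 to 4 reads of Nedd4 allow no comparison.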
